A study of Mus musculus with 12 samples.

Results

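The genes described here encode the proteins of the mitochondrial ribosome, and they were chosen by name: every measured gene whose symbol begins with Mrpl or Mrps followed by a digit. Of the 19505 gene symbols measured on the arrays, 76 met this rule, each with 1 probe set. They comprise 50 genes of the large subunit, 25 of the small subunit and Mrps36, which is now known as a component of the 2-oxoglutarate dehydrogenase complex and was placed in neither. Mrps30 and Mrps18a carry small-subunit names but are counted with the large subunit, where their proteins are known to reside. The rule uses names and no measured value.

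Mitochondrial ribosomes translate the few proteins encoded by mitochondrial DNA, all of which are core subunits of the respiratory chain or of ATP synthase. Their ribosomal RNAs come from mitochondrial DNA, whereas all of their proteins are encoded in the nucleus, made in the cytosol and imported. Many have counterparts in bacterial ribosomes and the others were acquired by the mitochondrial lineage. In liver, an organ rich in mitochondria, this machinery supports oxidative metabolism, and inherited defects in several of these genes cause combined deficiencies of the respiratory chain in humans.

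The livers of 12 adult male C57BL/6J mice were profiled, each on an expression array of its own. The first group held 6 sons of wild-type (WT) dams, arrays 1 to 6, and the second, arrays 7 to 12, held 6 sons of UCP1-KO dams, which lack uncoupling protein 1. Uncoupling protein 1 lets mitochondria of brown fat release energy as heat, and the series asks how this activity of the mother bears on glucose handling of her sons. All sires were heterozygous and all 12 sons are labelled heterozygous, so that the labels distinguish the groups only by the mother. The mutant allele therefore came from the father in the first group and from the mother in the second, and an effect of its parental origin and one of the mother's genotype cannot be told apart. Their age was 4 to 5 months, with standard chow and housing at 23 °C in both groups. The labels do not say which sons shared a litter. A p-value here reflects only how much these 12 animals varied. A difference in bulk RNA cannot tell fewer cells of a type from less RNA per cell.

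Values are log2 signals, so a difference of 1 is a 2-fold change. Pearson's r between arrays was 0.985 to 0.992 over the 22206 probe sets tested, which are not independent. All 8 hepatocyte markers (Alb, Apoa1, Ttr and others) were bright, with means between 16.78 and 19.64, and 0 of the 4 T or B cell markers exceeded the negative controls. Markers of other liver cells exceeded them too, 5 of 5 measured for Kupffer cells and 5 of 5 for endothelium. For stellate cells, cholangiocytes and erythroid cells the counts were 3 of 4, 2 of 4 and 1 of 1. The markers of smallest p were Stab2 (endothelial) and Pck1 (hepatocyte). Their differences, UCP1-KO dams minus WT dams, were -0.74 and 0.58 log2 (limma adjusted p = 0.175 and 0.292). Background, taken as the median signal of negative controls, was 6.41 to 6.62 on WT-dam arrays 3 to 6. It was 6.14 on WT-dam arrays 1 and 2 and 5.96 to 6.36 on the UCP1-KO-dam arrays. Of the 76 members, 73 had means above this background in both groups. The exceptions were Mrpl36, Mrpl54 and Mrps15, whose values below cannot be told from background.

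The promoters of the members were searched for letters of sites of 3 kinds of regulator of mitochondrial genes. RefSeq windows (GRCm38.p6) reaching from 250 bases before to 50 bases after the start were found for 67 of the 76. They were searched on both strands for the letters CCGGAAG, a core of sites of the ETS family to which the mitochondrial regulator GABP belongs. They were also searched for a core of sites of nuclear respiratory factor 1 (NRF1), whose letters are the capitals in the Mrpl9 stretch below and read the same on both strands, and for AAGATGGCG, found in YY1 sites. The last 3 letters of the ETS motif are the first 3 of the YY1 motif, and 2 members (Mrps18a and Mrps27) held both motifs, at separate places. The ETS letters occurred in 25 of the 67 members (37.3%), against 12.9% of 17492 protein-coding genes with a window and 9.93% of all 27025 genes with one. The YY1 letters occurred in 8 members (11.9%), against 2.14% of protein-coding genes, and the NRF1 letters in 3 (4.48%), against 1.47%. At least 1 of the 3 was present in 34 members (50.7%), against 15.7% of protein-coding genes, 40.6% of 64 genes of the respiratory chain and ATP synthase and 50% of 42 cytosolic ribosomal protein genes. The other 33 members held none of the 3. Taken singly, the ETS, YY1 and NRF1 letters occurred in 26.6%, 10.9% and 7.81% of the respiratory chain and ATP synthase genes. In the cytosolic ribosomal protein genes the shares were 42.9%, 2.38% and 4.76%. The median GC content was 58% in members and 57.3% in protein-coding genes, with the window richest in GC taken where a gene had several.

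The 150 bases before the start are printed for 7 members, with matches to the letters searched in capitals. Mrpl9, Mrpl22 and Mrpl3 are shown because they had low unadjusted p-values below and hold a match. Mrpl24, Mrpl50 and Mrps17 are shown because they had the lowest p-values in each direction and hold none of the 3 in these stretches. Mrpl52 is shown because its signal followed the other members most closely across arrays. They lie at chr3:94443186-94443335 (plus strand) for Mrpl9, chr11:58171514-58171663 (plus) for Mrpl22 and chr9:105053118-105053267 (plus) for Mrpl3. The others lie at chr3:87919394-87919543 (plus) for Mrpl24, chr4:49521084-49521233 (minus) for Mrpl50, chr5:129715347-129715496 (plus) for Mrps17 and chr14:54426759-54426908 (plus) for Mrpl52.
Mrpl9: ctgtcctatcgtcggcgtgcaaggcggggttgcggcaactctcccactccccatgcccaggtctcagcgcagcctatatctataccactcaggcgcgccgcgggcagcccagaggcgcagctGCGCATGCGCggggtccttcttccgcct
Mrpl22: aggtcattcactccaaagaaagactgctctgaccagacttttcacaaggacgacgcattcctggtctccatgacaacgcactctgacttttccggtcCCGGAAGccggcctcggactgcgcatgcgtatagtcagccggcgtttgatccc
Mrpl3: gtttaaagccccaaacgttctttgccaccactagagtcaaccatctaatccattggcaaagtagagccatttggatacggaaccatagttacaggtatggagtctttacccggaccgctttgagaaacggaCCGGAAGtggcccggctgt
Mrpl24: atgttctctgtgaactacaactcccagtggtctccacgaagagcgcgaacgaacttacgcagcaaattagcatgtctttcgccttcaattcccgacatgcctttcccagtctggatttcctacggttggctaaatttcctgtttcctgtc
Mrpl50: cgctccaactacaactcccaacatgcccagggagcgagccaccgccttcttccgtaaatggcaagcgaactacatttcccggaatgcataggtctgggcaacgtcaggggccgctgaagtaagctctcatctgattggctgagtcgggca
Mrps17: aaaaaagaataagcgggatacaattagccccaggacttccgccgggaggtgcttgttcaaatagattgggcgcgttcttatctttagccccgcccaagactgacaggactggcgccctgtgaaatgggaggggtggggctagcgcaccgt
Mrpl52: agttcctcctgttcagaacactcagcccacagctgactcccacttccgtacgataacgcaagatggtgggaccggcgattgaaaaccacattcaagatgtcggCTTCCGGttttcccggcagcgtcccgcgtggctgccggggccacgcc
In Mrpl9 the capitals mark the NRF1 letters, 28 bases before the start. In Mrpl22 and Mrpl3 they mark the ETS letters, 53 and 19 bases before it, and in Mrpl52 the ETS letters read on the other strand, 47 bases before it. A match is a description of the letters and not a binding site.

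No change in any of the 76 genes was detected between sons of UCP1-KO dams and sons of WT dams. Of the 76 members, 0 passed an adjusted p under 0.05 in the limma fit with Benjamini-Hochberg adjustment over all 22206 probe sets (lowest adjusted p = 0.226, for Mrpl24), and 0 passed 0.1. In the same fit 0.036% of all probe sets passed 0.05. At an unadjusted p under 0.05, 6 members were higher in sons of UCP1-KO dams (7.89%, against 7.08% of all probe sets) and 1 was lower (1.32%, against 6%). In 0 members did the values of the 2 groups lie fully apart, against 1.05% of all probe sets. The median difference of the members, UCP1-KO dams minus WT dams, was 0.04 log2, close to 0.03 over all probe sets. Of the members 44 lay above 0 and 32 below (57.9% above, against 56.8% of all probe sets, of which 43.2% lay below). With quantile normalization 52 lay above 0 and 24 below, while 48.3% of all probe sets lay below. Of all 22206 probe sets, 10602 had means above background in both groups. With the dimmer 50% left out, 42 of 73 members lay above 0, against 49.5% of all probe sets, whose median was -0.0027. There the same 6 members were higher and the same 1 lower at an unadjusted p under 0.05, against 7.39% and 9.81%.

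The largest difference was 0.44 log2, or 1.36-fold, in Mrpl24, and the median size was 0.11. In 34 members the difference was at most 0.1, in 32 it lay between 0.1 and 0.3, and in 10 it exceeded 0.3, with 7 of these higher and 3 lower. The 95% interval lay within a 1.5-fold change in either direction for 58 of the 76 members. The widest bounds over all 76 were an increase of 1.69-fold for Mrpl24 and a decrease of 1.68-fold for Mrps17. The median SD between mice of a group was 0.26 for the members and 0.28 over all probe sets. The latter were dimmer, with a median signal of 6.21 against 9.55, and the SD at a like signal was not compared.

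**Figure D1:**
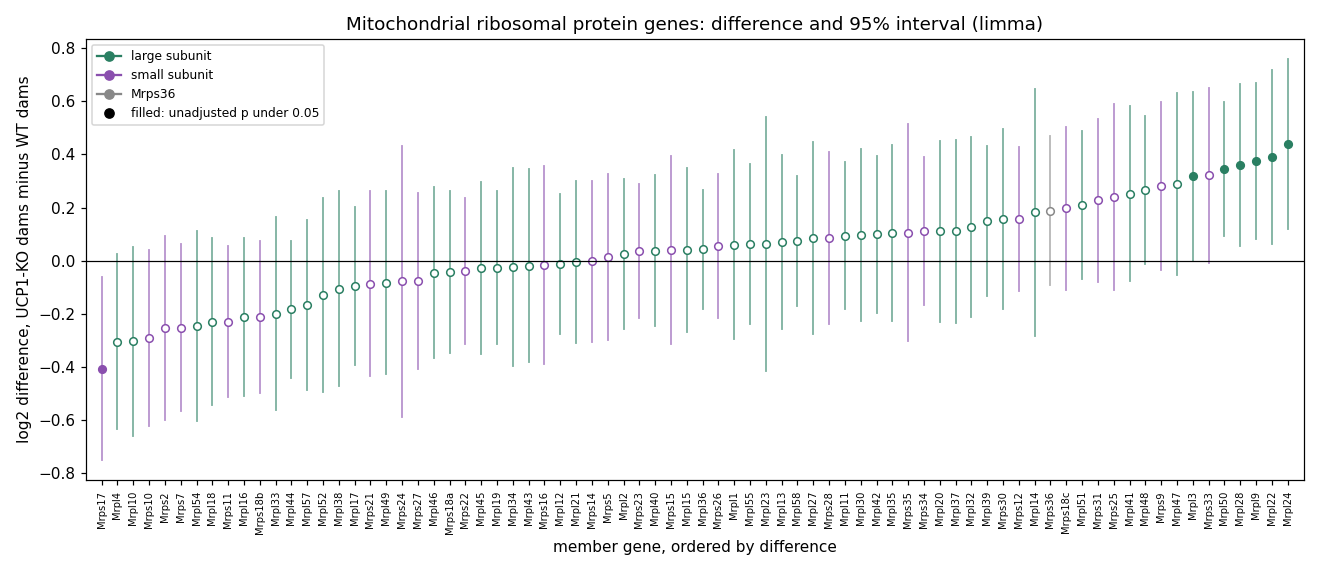
Log2 difference (vertical axis, UCP1-KO dams minus WT dams) of the 76 members, ordered along the horizontal axis by difference, with 95% intervals from limma as vertical lines; colours mark the subunit and filled points an unadjusted p under 0.05. The points run from -0.41 for Mrps17 to 0.44 for Mrpl24, and 69 intervals cross 0. Of the 7 filled points 6 are higher and belong to the large subunit, which holds 50 of the 76 members.

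Among proteins of the large subunit, 30 of 50 lay above 0, with a median difference of 0.06 log2. The 6 members with higher signals and an unadjusted p under 0.05 all belonged to it (12% of its genes, against 7.08% of all probe sets). It also holds 50 of the 76 members. The small subunit had 13 of 25 above 0 and a median of 0.01. The 30 measured large-subunit genes with bacterial counterparts had a median of 0.06 and held 5 of the 6 (16.7% of these genes). The 20 mitochondria-specific ones had a median of 0.01 and held 1 (5%). In the small subunit the medians were -0.02 for 15 genes with bacterial counterparts and 0.08 for 10 mitochondria-specific ones. No test was made between subunits.

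Mrpl24 encodes a protein next to the exit of the tunnel through which the new peptide leaves the ribosome. On WT-dam arrays 1 to 6 its signal was 11.94, 12.13, 11.94, 11.96, 11.97 and 12.18, and on UCP1-KO-dam arrays 7 to 12 it was 12.36, 13.12, 12.34, 12.17, 12.54 and 12.24. Of the 6 UCP1-KO-dam values 5 lay above every WT-dam value, and array 8 stood highest. The difference was 0.44 log2 (95% interval 0.12 to 0.76; 12.02 ± 0.11 against 12.46 ± 0.35, SD, n = 6 each; limma adjusted p = 0.226). Without UCP1-KO-dam array 8 it was 0.31.

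Mrpl50 encodes a mitochondria-specific protein of the large subunit. Its signal was 10.31, 10.10, 10.17, 9.97, 10.07 and 10.25 in sons of WT dams and 10.26, 10.40, 10.69, 10.61, 10.51 and 10.47 in sons of UCP1-KO dams. Only UCP1-KO-dam array 7 fell within the range of the first group. The difference was 0.35 log2 (interval 0.09 to 0.60; 10.15 ± 0.12 against 10.49 ± 0.15, SD, n = 6 each; limma adjusted p = 0.226).

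Mrpl9, the counterpart of the bacterial protein at the base of the L1 stalk, read 8.79, 8.80, 8.75, 8.45, 8.87 and 8.63 in sons of WT dams. It read 9.33, 8.96, 9.11, 8.72, 9.44 and 8.99 in sons of UCP1-KO dams. Here too 5 of 6 UCP1-KO-dam values exceeded all WT-dam values, and the difference was 0.38 log2 (interval 0.08 to 0.67, limma adjusted p = 0.252). Mrpl22, another protein at the tunnel exit, read 6.59 to 7.28 (median 6.92) against 6.84 to 7.75 (median 7.34). Its signal lay close to the background, and the difference was 0.39 log2 (adjusted p = 0.288).

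Mrpl28, which has a bacterial counterpart, read 7.74 to 8.06 (median 7.95) against 7.91 to 8.65 (median 8.22), with a difference of 0.36 log2 (limma adjusted p = 0.291). Mrpl3, whose protein reaches toward the centre where peptide bonds are formed, read 8.74 to 9.21 (median 9.09) against 9.06 to 9.79 (median 9.28). Its difference was 0.32 log2 (adjusted p = 0.381), and the high values came from UCP1-KO-dam arrays 8 and 11, at 9.79 and 9.69. Without UCP1-KO-dam arrays 8, 10 and 11 it was 0.07. These 3 lay farthest from the WT-dam arrays on the first principal component, the main axis of variation over all probe sets. Their scores were 37.5, 26.3 and 34.2. The scores were -2.4 to 1.7 on the other UCP1-KO-dam arrays and -24.1 to 1.2 on the WT-dam arrays. Leaving them out is therefore not a neutral check of a difference between groups. In the other 5 higher members the difference without these 3 arrays was 0.24 to 0.43.

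Mrps17, an RNA-binding protein of the small subunit, was the 1 member with a lower signal and an unadjusted p under 0.05. It read 9.73, 9.14, 9.61, 9.18, 9.98 and 9.22 in sons of WT dams and 9.20, 8.73, 8.98, 9.25, 8.95 and 9.31 in sons of UCP1-KO dams. WT-dam arrays 1, 3 and 5 were higher than all arrays of the other group, and the remaining 3 overlapped with it. The difference was -0.41 log2 (interval -0.75 to -0.06, limma adjusted p = 0.292).

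**Figure D2:**
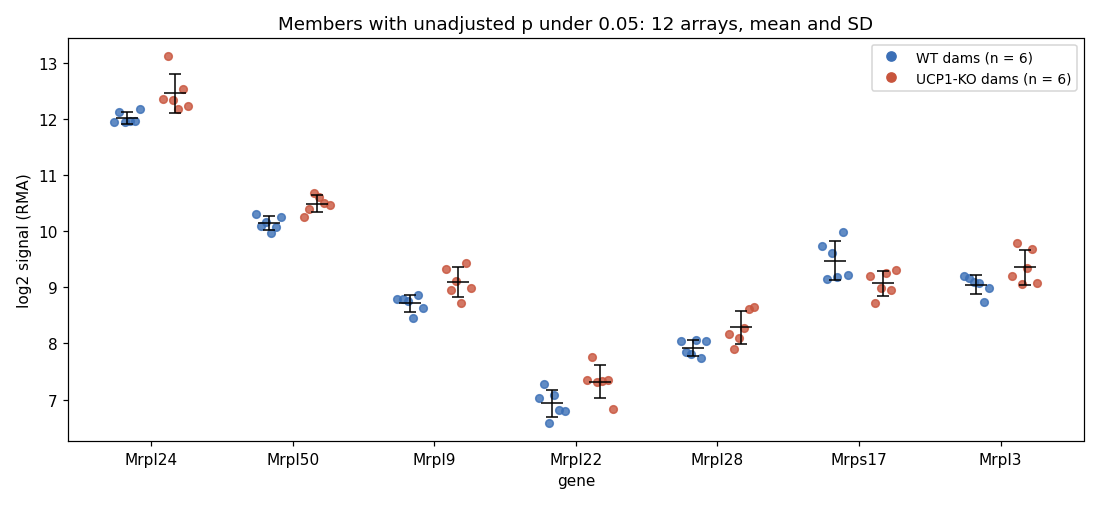
Log2 signal (vertical axis) of the 7 members with an unadjusted p under 0.05 (horizontal axis) on 6 arrays of WT dams (blue) and 6 of UCP1-KO dams (red), with the mean and SD of each group in black. The groups overlap in every gene, and in Mrpl24 the highest point is UCP1-KO-dam array 8 at 13.12.

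The next 14 members by p-value were 7 above 0 and 7 below. Above 0 were Mrps33, a mitochondria-specific protein of the small subunit, with 0.32, and Mrpl48, of the central protuberance of the large subunit, with 0.27. Mrpl47 (0.29), Mrps9 (0.28), Mrpl41 (0.25), Mrps31 (0.23) and Mrpl51 (0.21) were also above 0. Below 0 were Mrpl4, which lines the peptide tunnel, with -0.30, and Mrpl10, at the base of the stalk that recruits translation factors, with -0.30 and an isolated low value of 7.63 on UCP1-KO-dam array 8. When WT-dam arrays 3 to 6 were left out, Mrps33 had -0.02 and Mrpl48 0.10. The small-subunit genes Mrps10 (-0.29), Mrps7 (-0.25), Mrps2 (-0.25), Mrps11 (-0.23) and Mrps18b (-0.21) were also below 0. For these 14 genes the limma adjusted p was 0.394 to 0.531. Mrpl10 had -0.17 without array 8 of the UCP1-KO dams, and Mrps2 had -0.16 without array 10. With arrays 8, 10 and 11 of that group all left out, Mrpl10 had -0.12, Mrps10 -0.09, Mrpl4 -0.05, Mrps11 -0.05 and Mrps18b -0.03. Leaving out WT-dam arrays 3 to 6 instead gave -0.60 for Mrpl10, -0.53 for Mrps7, -0.49 for Mrpl4, -0.49 for Mrps10, -0.39 for Mrps11 and -0.14 for Mrps2. Mrps11 read 9.95 to 10.40 in sons of WT dams and 9.76 to 10.25 in sons of UCP1-KO dams, so that the groups overlapped. In Mrpl48 all 6 (11.51 to 11.81) lay above the WT-dam median of 11.40, while WT-dam arrays 1 and 6 reached 11.67 and 11.66.

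At the exit of the peptide tunnel, 6 measured genes (Mrpl17, Mrpl22, Mrpl23, Mrpl24, Mrpl45 and Mrpl47) had differences from -0.09 to 0.44 with a median of 0.18, and 4 were above 0. In the stalk, the 3 genes above background were Mrpl10 with -0.30, Mrpl12 with -0.01 and Mrpl11 with 0.09, and Mrpl54 lay below background. In the central protuberance, 8 genes ran from -0.23 to 0.27 with a median of 0.00. Mrpl53 of the stalk and Mrps6 of the small subunit were not analysed here.

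Several members are known from human disease or from other work on mitochondrial translation. Mrps22, Mrps16, Mrps34, Mrpl3, Mrpl12 and Mrpl44 have human counterparts whose loss impairs the respiratory chain, and lowering the worm counterpart of Mrps5 extends lifespan. Mrpl12, a stalk protein that also binds mitochondrial RNA polymerase, had a difference of -0.01 (interval -0.27 to 0.25), and Mrps5 had 0.01 (interval -0.30 to 0.32). Mrps22 had -0.04 (interval -0.32 to 0.24), Mrps16 had -0.02 (interval -0.39 to 0.36) and Mrps34 had 0.11 (interval -0.17 to 0.39). All 5 intervals lay within a 1.5-fold change in either direction, and the sign of each of these 5 differences turned in at least 1 alternative setting. WT-dam array 1 stood highest in Mrps22, at 10.37, and in Mrps34, at 10.03. Mrpl44, related to ribonuclease III enzymes, read 8.55, 8.50, 8.39, 8.31, 8.35 and 8.43 in sons of WT dams and 8.38, 8.27, 8.30, 8.30, 7.85 and 8.33 in sons of UCP1-KO dams. All 6 UCP1-KO-dam values lay below the WT-dam median of 8.41, array 11 lowest, and the difference was -0.18 log2 (interval -0.44 to 0.08, limma adjusted p = 0.55).

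By the choice of probe sets with the highest signal, Mrpl42 had a difference of 0.10, Mrpl27 of 0.09 and Mrpl51 of 0.21. Among those of lowest signal, Mrpl46 read 6.94 against 6.90, Mrps15 5.98 against 6.02, Mrpl54 5.35 against 5.10 and Mrpl36 5.14 against 5.19. Signals of different probe sets do not rank transcripts by abundance.

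Many members moved together from mouse to mouse within a group. After each group's mean was removed, Pearson's r between 2 members over the 12 arrays averaged 0.20, against 0.00 between all 19505 symbols, and 72.8% of member pairs were above 0. All genes were read from the same 12 arrays and normalised together, so r is given as a description. The 19505 symbols were dimmer, with a median signal of 6.32 against 9.55 in the members, and r at a like signal was not compared. The average was 0.21 within the large subunit, 0.20 within the small subunit and 0.20 between them. It was 0.46 among cytosolic ribosomal protein genes, 0.54 among respiratory chain and ATP synthase genes and 0.00 among mitochondrial aminoacyl-tRNA enzymes. Mrpl52 followed the mean of the other members most closely (r = 0.88), then Mrps30 (0.86), Mrpl20 (0.84) and Mrps35 (0.84). Of the 7 members with low p-values, Mrpl9 had 0.66, while the other 6 lay between -0.07 (Mrpl24) and 0.20 (Mrpl3). Mrpl18, the counterpart of a bacterial protein that binds 5S ribosomal RNA, ran against the rest (-0.51). It was highest on WT-dam array 3, at 10.48, and lowest on UCP1-KO-dam array 9, at 9.39.

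The mean of the 76 members, each set against its own mean, was highest on WT-dam array 1 at 0.24 log2, where 27 of the 76 had their highest value. It was 0.08 on WT-dam array 2 and -0.10, -0.16, -0.05 and -0.12 on WT-dam arrays 3 to 6. On UCP1-KO-dam arrays 7 to 12 it was 0.12, -0.04, -0.01, -0.09, 0.13 and 0.01. The WT-dam arrays thus spanned the full range, with arrays 1 and 2 above 0 and arrays 3 to 6, those with the bright negative controls, below it. The group means were -0.02 ± 0.15 and 0.02 ± 0.09 (SD, n = 6 each). Mrpl52, a protein of the central protuberance, shows the pattern in 1 gene: it read 10.10 and 9.70 on WT-dam arrays 1 and 2, 8.93 to 9.36 on WT-dam arrays 3 to 6 and 9.00 to 9.63 on the other 6.

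**Figure D3:**
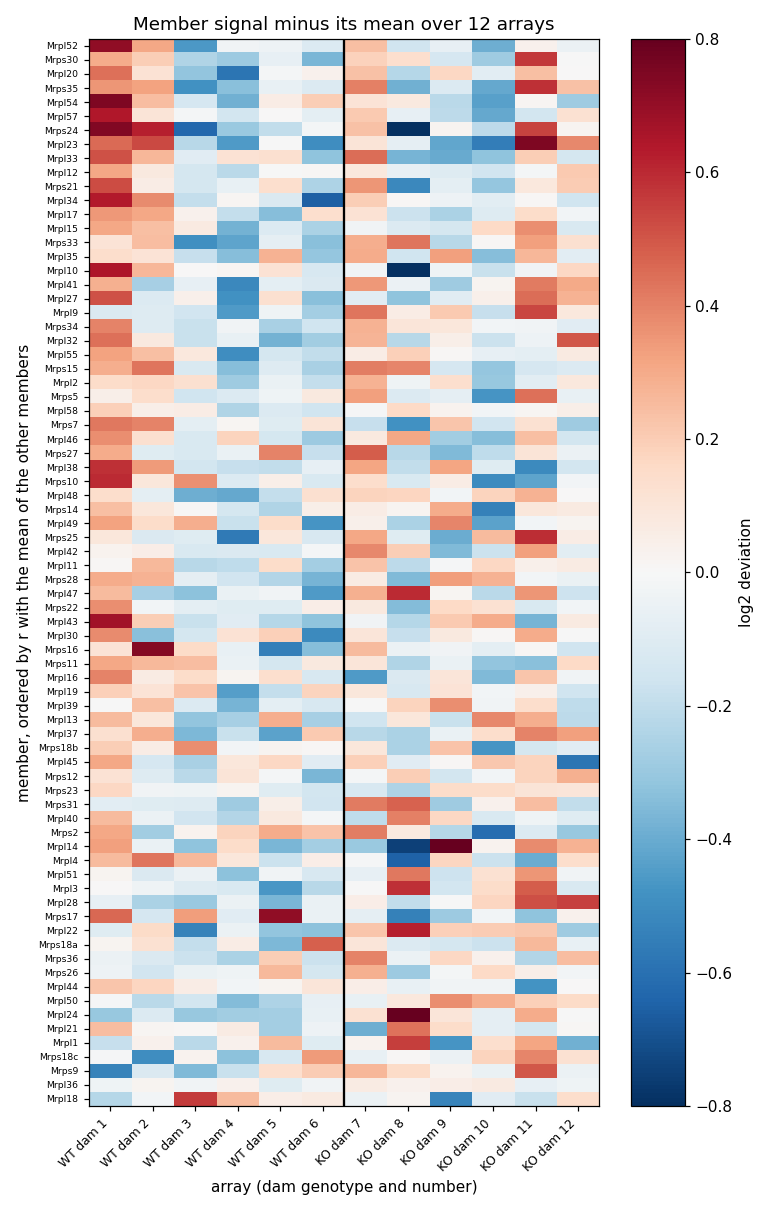
Log2 signal of each of the 76 members (rows, ordered by r with the mean of the other members) minus its mean over the 12 arrays (columns, WT dams left of the black line and UCP1-KO dams right of it), red above and blue below. WT-dam array 1 is red in most of the upper rows and WT-dam array 4 mostly blue, while no block of rows separates the 2 groups.

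The median of the members changed sign when the WT-dam arrays with bright negative controls were left out, and array 1 of that group moved it the other way. Leaving out WT-dam array 1 alone gave 58 members above 0 and 18 below, against 57% and 43% of all probe sets. Their median was then 0.10, against 0.04 over all probe sets. Without WT-dam arrays 3 to 6, which leaves 2 WT-dam arrays, 54 of the 76 members lay below 0 (against 46.8% of all probe sets) and their median difference was -0.14 log2, instead of 0.04. The members' mean was -0.16 to -0.05 on the arrays left out and 0.24 and 0.08 on the 2 kept. The direction of this shift therefore follows from the arrays removed. In that setting 8 members were lower at an unadjusted p under 0.05 (against 3.77% of all probe sets), 1 was higher (against 3.26%) and 0 passed the adjusted threshold. The groups lay fully apart in 15 members, 13 lower and 2 higher, against 9.58% of all probe sets with so few arrays left. With the negative control median as a covariate, 49 members lay below 0 (against 45.5% of all probe sets), with a median of -0.07, and 3 were higher and 5 lower at an unadjusted p of that size (against 5.47% and 5.55%). Without UCP1-KO-dam arrays 8, 10 and 11 the groups lay fully apart in 3 members, against 4.02% of all probe sets, 4 were higher at that p (against 4.71%), 0 were lower (against 3.77%) and 27 lay below 0, against 45.1%. The part of the negative control signal in these values was otherwise not tested. Without WT-dam arrays 3 to 6, Mrpl24, Mrpl50, Mrpl9 and Mrpl28 kept differences of 0.42, 0.29, 0.30 and 0.34, Mrps17 had -0.37, and Mrpl22 and Mrpl3 had 0.17 each.

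Among the other genes of mitochondrial translation listed here, 0 passed the adjusted threshold. The 4 measured ribosomal proteins named outside the Mrp series were Dap3, Ptcd3, Chchd1 and Gadd45gip1, with differences from -0.32 (Gadd45gip1, adjusted p = 0.408) to 0.14 (Chchd1), and 0 of 4 passed. Of 13 translation factor genes 0 passed and 10 lay above 0, with a median of 0.13. They included the elongation factor genes Tsfm, with 0.32 (limma adjusted p = 0.328), and Tufm, with 0.23, and the initiation factor gene Mtif2, with 0.24. Of 19 genes for mitochondrial aminoacyl-tRNA enzymes 0 passed, and the median was 0.00. Sars2, which charges serine tRNA, had -0.42 (adjusted p = 0.241), Yars2, for tyrosine, 0.34 (0.269), and Iars2, for isoleucine, 0.33 (0.28).

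Of 25 genes of ribosome assembly and ribosomal RNA modification 0 passed, 15 lay below 0 and the median was -0.08. Mettl17, which is needed for assembly of the mitochondrial small subunit, read 9.37, 9.54, 10.10, 9.99, 9.85 and 9.63 in sons of WT dams. It read 9.21, 9.10, 8.79, 9.19, 9.08 and 9.05 in sons of UCP1-KO dams. Like 1.05% of all probe sets, it had groups fully apart, with every value below all those of the first group. Its difference was -0.68 log2 (interval -0.98 to -0.38; 9.75 ± 0.28 against 9.07 ± 0.15, SD, n = 6 each), and it did not pass the adjusted threshold (limma adjusted p = 0.0794; 0.482% of all probe sets lay under 0.1). The gap was smallest between WT-dam array 1 and UCP1-KO-dam array 7. WT-dam arrays 3 to 6, those with the bright negative controls, held the highest values of Mettl17, 9.63 to 10.10. WT-dam arrays 1 and 2 read 9.37 and 9.54. The part of the negative control signal in the difference of Mettl17 was not tested. Dhx30, an RNA helicase of mitochondrial ribosome assembly, had -0.30 (adjusted p = 0.294) and Mterf3 had -0.39 (0.404). Among 14 genes of mitochondrial DNA maintenance and transcription 0 passed. Polrmt, the mitochondrial RNA polymerase gene, had -0.55 (adjusted p = 0.235), Tfb2m, its initiation partner, 0.34 (0.364), and Ssbp1 -0.28 (0.448).

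The 2 groups of genes most like the members in function were set beside them, in the same fit. Of 54 cytosolic ribosomal protein genes 48 lay above 0, with a median difference of 0.24 log2, and 19 had a higher signal at an unadjusted p under 0.05 (35.2%, against 7.08% of all probe sets), while 0 passed the adjusted threshold. The groups lay fully apart in 6 of the 54, against 1.05% of all probe sets. Rps4x, of the cytosolic small subunit, had 0.56 and Rps20 had 0.61 (limma adjusted p = 0.129 and 0.134), and both are among the 6, whereas Rpl7, of the cytosolic large subunit, had 0.51 (0.129) with overlapping groups. Of 76 genes for subunits of the respiratory chain and ATP synthase, which include the partners of the proteins made on mitochondrial ribosomes, 54 lay above 0 with a median of 0.13. At an unadjusted p under 0.05 this list had 4 genes above 0 (5.26%, against 7.08% of all probe sets) and 1 below (1.32%, against 6%), and 0 passed the adjusted threshold, with Ndufc2 of complex I at 0.46 and Cox4i1 of complex IV at 0.39 (limma adjusted p = 0.2 and 0.211). The 15 genes of a mitochondrial content list (citrate synthase, porins, import proteins, chaperones, prohibitins and Immt) had a median of 0.09, with Hspd1 at 0.33 and Cs, the citrate synthase gene, at -0.38, and 0 passed. The difference between these lists and the members was not tested. Without WT-dam arrays 3 to 6 the median of the cytosolic list was 0.00, of the respiratory list -0.13 and of the content list -0.10.

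**Figure D4:**
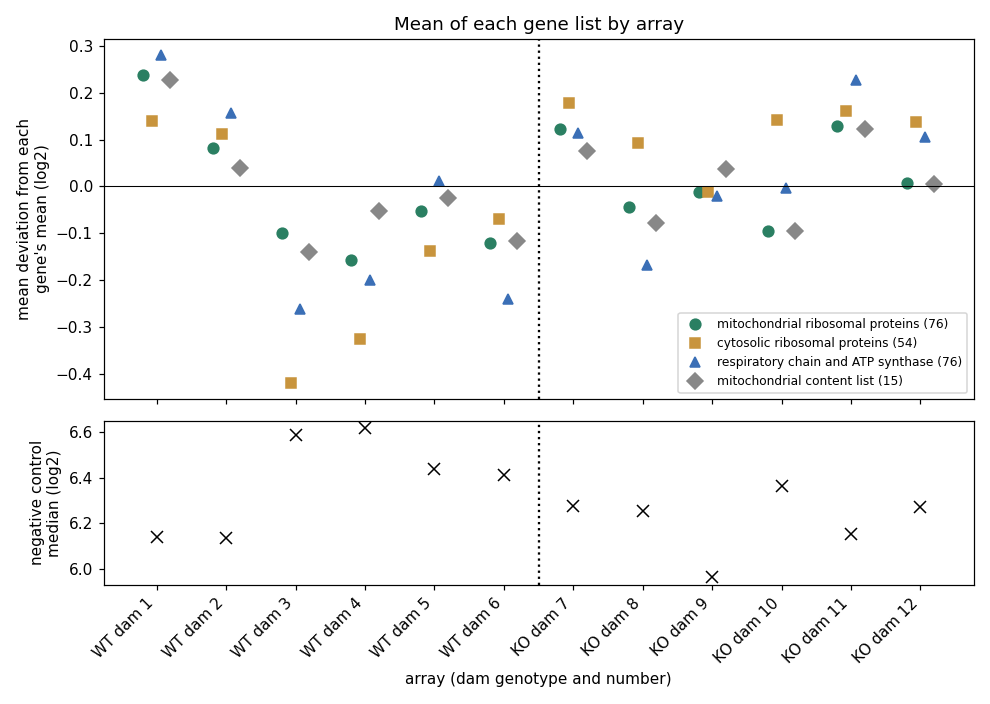
Upper panel: mean log2 deviation (vertical axis) of 4 gene lists from each gene's own mean, on each of the 12 arrays (horizontal axis), with WT dams left and UCP1-KO dams right of the dotted line. Lower panel: median log2 signal of the negative control probe sets; WT-dam arrays 3 to 6 are highest there at 6.41 to 6.62 and the mean of the 76 members is below 0 on these arrays.

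**Figure D5:**
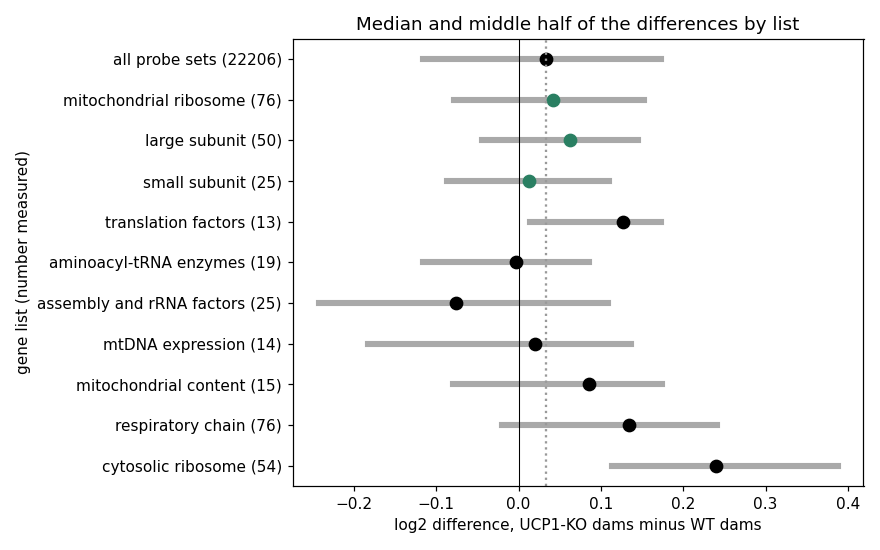
Median (points) and range from the lower to the upper quartile (bars) of the log2 differences, UCP1-KO dams minus WT dams (horizontal axis), in each gene list (vertical axis, number measured in brackets); green marks the mitochondrial ribosome and the dotted line the median of all probe sets. The members' median of 0.04 lies by the line at 0.03, and the cytosolic ribosome's at 0.24.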

How the data were processed

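Liver RNA of 12 mice was hybridised to 1 array each. The authors deposited log2 signals per probe set; RMA and Transcriptome Analysis Console are named in the submitters' processing notes, while versions and genome build are not given in the sources used here. Of the deposited rows, 6640 control probe sets were left out of the tests and 22206 were tested. Signals were compared with limma 3.58.1 in R 4.3.3 (lmFit, eBayes), two-sided, with Benjamini-Hochberg adjustment over all 22206 and a threshold of 0.05. Differences are UCP1-KO dams minus WT dams. The procedure was tested on simulated data with known differences. Recovery was required there only for sizes well above those of the members, so the test does not show that changes as small as theirs would be detected. The brightest probe set stood for a symbol. The 6 arrays a group limit the precision.

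The rule for the members uses symbols alone, but the choice of this gene family and of the gene lists was made with earlier results of these data known. Named were up to 8 members of smallest p in each direction, the 4 brightest and 4 dimmest, members with groups fully apart, and always Mrps5, Mrpl12, Mrpl44, Mrps16, Mrps22, Mrpl3 and Mrps34. From every other list up to 3 of smallest p were eligible. Mrpl52, Mrps30, Mrpl20, Mrps35 and Mrpl18 were named after their values were seen, by their r with the other members, and Mrps9, Mrpl47, Mrpl41 and Mrps31 as the rest of the 21 smallest p-values. Alternatives were quantile normalization, centring on array medians, filters on dim probe sets (50% and 25%), averaged probe sets, a variance trend with robust estimation, the negative control median as covariate, and leaving out WT-dam arrays 3 to 6, UCP1-KO-dam arrays 8, 10 and 11, or each array in turn. WT-dam arrays 3 to 6 had the brightest negative controls, and UCP1-KO-dam arrays 8, 10 and 11 the highest scores on the first principal component. Leaving out either set is not neutral for differences between groups. Promoter windows came from RefSeq.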

Additional observations from a re-analysis of the deposited data

Results flagged for a closer look

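In 72 groups of 6 arrays (the named members and array summaries examined), 4 had 1 array far from the other 5 by Dixon's criterion, which chance alone reaches in about 1 in 20 groups. Mrps22 read 10.37 on WT-dam array 1, with the next value at 10.05. Mrps34 read 10.03 on the same array, with the next at 9.60. Mrpl10 read 7.63 on UCP1-KO-dam array 8, below the next value of 8.27. Mrpl44 read 7.85 on UCP1-KO-dam array 11, with the next also at 8.27. Without UCP1-KO-dam array 11 the difference of Mrpl44 was -0.10 instead of -0.18.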

How the results depend on the processing

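No paired analysis was made, because the labels name no batch, litter or pairing. In each of the 21 alternatives 0 members passed an adjusted p under 0.05 in limma. With the negative control median as covariate, members at an unadjusted p under 0.05 numbered 3 above 0 and 5 below, the large-subunit median was -0.07 and that of the content list -0.04. Mrpl27 had -0.03, Mrps15 -0.11 and Mrps5 -0.08. Without WT-dam arrays 3 to 6, 1 was higher and 8 lower, 15 had groups fully apart (against 9.58% of all probe sets), and the medians were -0.14 for the members, -0.14 for the large and -0.17 for the small subunit. There the cytosolic ribosome had 0.00, the respiratory chain -0.13, the content list -0.10 and assembly -0.18, and Mrps33 had -0.02, Mrpl27 -0.15, Mrps15 -0.33, Mrps5 -0.09 and Mrps34 -0.09. Without UCP1-KO-dam arrays 8, 10 and 11, 4 were higher (against 4.71% of all probe sets) and 0 lower (against 3.77%), 3 had groups fully apart (against 4.02%), aminoacyl-tRNA enzymes had a median of 0.08 and assembly 0.06, with Mrpl12 at 0.06, Mrps16 at 0.01 and Mrps22 at 0.06. Quantile normalization gave Mrpl36 -0.03, Mrps15 0.00, Mrpl12 0.01, Mrps16 0.02 and Mrps22 0.00, and centring gave Mrps5 -0.02. With 1 array left out, 4 to 10 members were higher (against 5.73% to 7.81% of all probe sets) and 0 to 3 lower (5.03% to 6.61%) at an unadjusted p under 0.05, 0 to 2 had groups fully apart (1.27% to 2.45%), and the aminoacyl-tRNA median was -0.07 to 0.04. The 10 were reached without WT-dam array 1 or UCP1-KO-dam array 9, the 3 without UCP1-KO-dam array 7 or 9 (2 without array 12), and 0 lower without WT-dam array 1 or UCP1-KO-dam array 8. The members' median ran from 0.00 without WT-dam array 4 to 0.10 without WT-dam array 1. Ranges then were -0.11 to 0.02 for Mrpl46, -0.06 to 0.05 for Mrpl12, -0.13 to 0.13 for Mrps16, -0.08 to 0.03 for Mrps22, -0.07 to 0.11 for Mrps5, 0.00 to 0.20 for Mrpl27 and -0.04 to 0.13 for Mrps15. The 7 members with low p-values kept their sign in all alternatives run. Causes were not tested.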

Other observations

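Among 8 measured regulators of mitochondrial biogenesis, 0 passed the adjusted threshold. Gabpa, which encodes the DNA-binding subunit of GABP, read 11.86 to 12.30 in sons of WT dams and 12.30 to 12.80 in sons of UCP1-KO dams, with the lowest value of the second group just above the highest of the first. Gabpa was the 1 of the 8 with groups fully apart, against 1.05% of all probe sets. Its difference was 0.40 log2 (95% interval 0.13 to 0.67, limma adjusted p = 0.191). Myc, a broad activator of growth genes, had -1.59 (adjusted p = 0.356), with values of 7.65 to 12.35 against 6.72 to 9.59, and Nrf1 had -0.15 (0.651).

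Members with the ETS letters in their promoter window had a median difference of -0.02 log2, with 11 of 25 above 0. Those without had 0.06, with 28 of 42 above 0. With any of the 3 motifs the median was 0.04 in 34 members and without any it was 0.06 in 33. No test was made between these sets.

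Mrpl54, of the stalk, lay below the negative control median and still followed the mean of the other members with r = 0.82 over the 12 arrays. Whether its signal measures transcript was not tested.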
